A study of Mus musculus with 10 samples.

Results

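The genes described are the receptors through which acetylcholine acts on cortical cells, 5 muscarinic receptors (Chrm1 to Chrm5) and 5 neuronal nicotinic subunits (Chrna3, Chrna4, Chrna5, Chrna7 and Chrnb2). They were taken by gene symbol from a list of 10, and 8 of them, 4 muscarinic and 4 nicotinic, were found among the 13661 genes of the authors' deposited table. Chrm5 and Chrna3 were not among the genes tested and have no value here. The table compares the cortex of Chd8 knock-in (KI) mice, a model of duplication of the chromatin remodeller gene Chd8, with that of wild-type (WT) mice, with 5 libraries of poly(A) RNA per genotype from males aged 8 weeks. The labels give neither the construction of the knock-in allele nor its copy number, its background strain, or any litter.

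Acetylcholine reaches the cortex mainly from basal forebrain neurons and acts through both receptor classes. Muscarinic receptors are G protein coupled. M1, M3 and M5 act through Gq and phospholipase C, whereas M2 and M4 act through Gi/o and lower cyclic AMP. Nicotinic receptors are pentameric cation channels. The heteromer of alpha4 and beta2 subunits and the alpha7 homomer are the main types of cortex, and alpha5 is an accessory subunit that joins alpha4 and beta2 in deep layer neurons.

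A short coding stretch shows how the nicotinic subunits differ at the agonist site. It covers loop C of the extracellular domain, where adjacent cysteines define an alpha subunit, read 5′ to 3′ from the principal GENCODE M21 transcript (GRCm38). The codons of the cysteine pair are in capitals.
Chrna4: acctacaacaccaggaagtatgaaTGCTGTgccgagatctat
Chrna7: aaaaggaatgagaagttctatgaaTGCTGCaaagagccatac
Chrna5: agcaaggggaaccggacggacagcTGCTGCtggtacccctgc
Chrnb2: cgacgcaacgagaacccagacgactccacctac
Chrna4 and Chrna7 carry a tyrosine codon, TAT, in the codon next but one before the pair, where it contributes to agonist binding. Chrna5 keeps the cysteine pair but has the aspartate codon GAC in that place, and it is known as a subunit that does not form the usual agonist site. Chrnb2, a beta subunit, has a gap in its alignment to Chrna4 at the pair and no cysteine pair in the window. Over the aligned protein, Chrna4 was 54.1% identical to Chrnb2, 56.4% to Chrna5 and 41.1% to Chrna7, in translations of the same transcripts.

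The muscarinic receptors share the Asp-Arg-Tyr motif at the cytoplasmic end of the third transmembrane helix, where rhodopsin-like receptors engage their G protein. Its codons are in capitals in the 45 bases below, taken from the same source.
Chrm1: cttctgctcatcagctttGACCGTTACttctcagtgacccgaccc
Chrm3: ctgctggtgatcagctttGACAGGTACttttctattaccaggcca
Chrm2: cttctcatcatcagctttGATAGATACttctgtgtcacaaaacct
Chrm4: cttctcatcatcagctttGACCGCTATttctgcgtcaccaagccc
The Gi/o coupled pair, Chrm2 and Chrm4, differed at 8 of these bases, and the Gq coupled pair, Chrm1 and Chrm3, at 12, while the 4 pairings across the classes differed at 10 to 14. Protein identity was 61.4% within the Gi/o pair and 60.6% within the Gq pair, against 48.8% to 51.9% across the classes.

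In the authors' deposited table, no receptor gene of the 8 had an adjusted p under 0.05, a threshold that 0.0732% of all genes passed (10 of 13660). None passed an unadjusted p of 0.05 either, where 3.22% of all genes did (440 of 13660). The smallest adjusted p of a receptor gene was 0.9999 (DESeq2 Wald test, Benjamini-Hochberg adjustment over all 13660 genes with a p-value). Log2 fold changes of KI over WT ran from -0.16 for Chrna4 to 0.12 for Chrm4, 4 of them positive and 4 negative, with a median of 0.012 beside 0.0025 over all genes. The 95% interval held 0 for all 8, and for 7 it lay entirely within ±0.5 on the log2 scale. Intervals are normal ones made from the deposited standard error (SE).

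**Figure D1:**
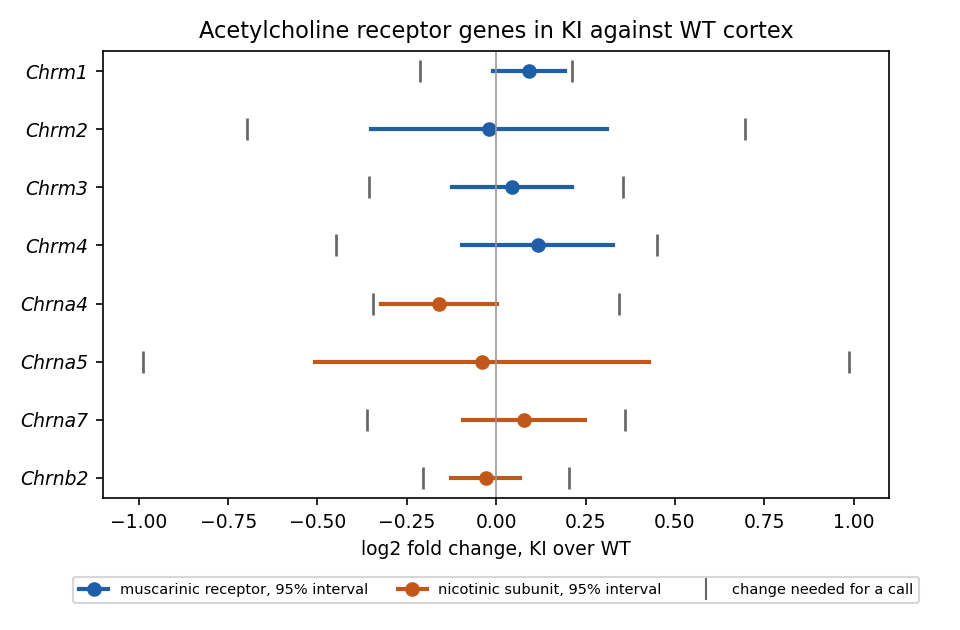
Log2 fold change of KI over WT (horizontal axis) for the 8 tested receptor genes, with bars for the 95% interval and grey ticks for the change each gene would have needed to be called. Every interval includes 0, and no point reaches its ticks, which lie at ±0.20 for Chrnb2 and ±0.99 for Chrna5.

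Per-library values were not analysed here, so KI and WT levels are the means implied by the deposited mean normalised count and fold change with equal groups, and no SD can be given. The direction of the table is not named in its header and was read from Chd8, which was 1.40-fold higher on this reading (95% interval 1.22 to 1.61) with an adjusted p of 0.0044 by the authors' deposited table. In these whole-tissue libraries, fewer cells of a type and less RNA per cell cannot be told apart.

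Among the Gq coupled receptors, Chrm1, the main muscarinic receptor of cortical pyramidal neurons, had an implied mean normalised count of 3982 in KI and 3735 in WT cortex. Its log2 fold change in the authors' deposited table was 0.092 (SE 0.051, 95% interval -0.0082 to 0.19, unadjusted p = 0.0719), a KI mean 6.62% higher, and it ranked 640 by p among 13660 genes. The groups therefore could not be told apart for this receptor, and the interval reaches no further than a 14.3% higher KI level. Chrm3, the other Gq receptor tested, had an implied count of 1215 in KI and 1179 in WT cortex, with a log2 fold change of 0.044 in the authors' deposited table (SE 0.086, interval -0.12 to 0.21).

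Chrm4, a Gi/o coupled receptor most abundant in striatal projection neurons and also made in cortex, had an implied mean normalised count of 906 in KI and 836 in WT cortex. This was the largest positive value of the 8, 0.12 on the log2 scale with an SE of 0.11 by the authors' deposited table (interval -0.096 to 0.33, unadjusted p = 0.285). The 12 striatal markers listed beside it all had negative log2 fold changes there, from -0.27 to -0.043, and none was called. Their part in the Chrm4 value was not tested. Chrm2, the Gi/o receptor known as a presynaptic autoreceptor on cholinergic terminals, had the lowest mean normalised count of the 4 muscarinic genes tested. Its implied count was 109 in KI and 110 in WT cortex, and its log2 fold change of -0.020 (SE 0.17) in the authors' deposited table leaves an interval from -21.5% to 23.9%.

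Chrna4, the agonist-binding alpha subunit of the main cortical nicotinic heteromer, stood furthest below 0. The implied mean normalised count was 715 in KI and 798 in WT cortex, a difference of -10.4%. In the authors' deposited table its log2 fold change was -0.16 (SE 0.083, interval -0.32 to 0.0037, unadjusted p = 0.0555) and its rank by p was 496, the highest of the 8. Chrnb2, the beta subunit that pairs with it, had an implied count of 1266 in KI and 1293 in WT cortex and a log2 fold change of -0.030 (SE 0.049, interval -0.13 to 0.067) in the authors' deposited table. Whether these subunits differ from each other was not tested.

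Chrna4 is also strongly made in the thalamus. Of 13 thalamic markers in the authors' deposited table, 12 had a negative log2 fold change, with a median of -0.40 and a range from -1.34 to 0.090. Of these markers 4 were called lower in KI, where 0.0732% of all genes were called in either direction (10 of 13660). The marker with the highest mean normalised count, not scaled by length, was Slc17a6, which loads glutamate into vesicles of subcortical neurons and stood at -0.32 (SE 0.11). Tcf7l2, a transcription factor of thalamic neurons, stood at -0.92 (SE 0.19, Wald test, adjusted p = 0.0022). Their part in the Chrna4 value was not tested. Thalamic markers such as Tnnt1 and Ramp3, which are among the 4 called, were listed with their lower values already known. The direction of the thalamic markers is therefore not independent evidence. Markers of the cortex itself were abundant, with the cortical glutamate transporter Slc17a7 at a mean normalised count of 28078, and 8 of 10 cortical neuron markers were positive, none called.

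Chrna7, which forms the homomeric receptor with high calcium permeability, had an implied mean normalised count of 354 in KI and 336 in WT cortex. Its log2 fold change in the authors' deposited table was 0.078 (SE 0.087, interval -0.092 to 0.25). Chrna5, the accessory subunit, had the lowest mean normalised count of the 8 tested receptor genes, at an implied 55.7 in KI and 57.3 in WT cortex. Its log2 fold change of -0.040 (SE 0.24) in the authors' deposited table has the widest interval of the 8, from -29.6% to 34.4%. Deep layer neuron markers, the cells in which Chrna5 is known, had a median of 0.0066 over 9 tested genes, and none was called.

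The spread between libraries, as it enters the standard error, differed among receptor genes of like abundance. Chrnb2 had an SE of 0.049 in the authors' deposited table, 0.75 times the median of the genes nearest to it in mean normalised count, and only 4.90% of those genes had a smaller one. Chrm4, with a mean normalised count of 871 beside 1280 for Chrnb2, had 1.51 times the local median, with 91.7% of genes below it. Chrm3 stood at 1.28 times and the other 5 between 0.91 and 1.12 times. To be called at the Wald score of the weakest called gene (4.15 in absolute value), Chrnb2 would have needed a log2 change of 0.20 and Chrm1 one of 0.21. Chrna4, Chrm3 and Chrna7 would have needed 0.34, 0.35 and 0.36, Chrm4 0.45, Chrm2 0.70 and Chrna5 0.99. Smaller changes in these genes would not have been called at this spread and depth.

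**Figure D2:**
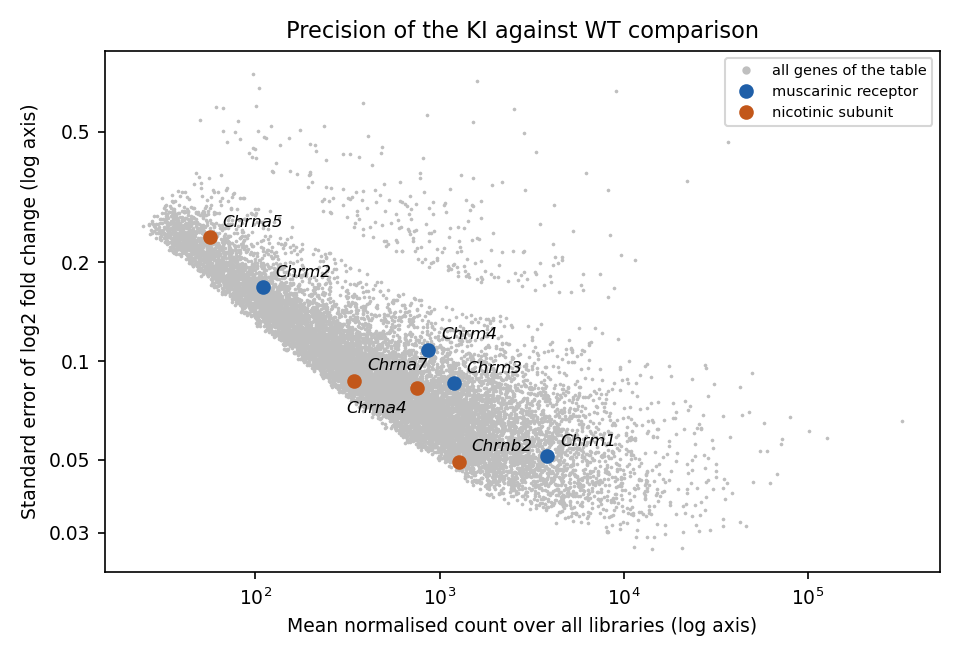
Standard error of the log2 fold change against the mean normalised count over all libraries, both on log axes, for all genes of the table (grey) and the 8 receptor genes. Chrnb2 lies near the lower edge of the cloud and Chrm4 near the upper edge of its dense part.

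Levels of different genes were compared per kilobase of annotated exon. Chrm4 and Chrm1 stood highest, at 605 and 595 mean normalised counts per kilobase over all libraries, and then Chrm3 at 191. The nicotinic genes Chrnb2 and Chrna4 followed at 153 and 151, Chrna7 at 76.6, and Chrm2 and Chrna5 were lowest of the 8 at 18.1 each. Chrm1 thus lay at the 88.1st percentile of the genes with an exon length and Chrna5 at the 8.77th. Chrm4 could not be separated from Chrm1 (ratio 1.02, approximate 95% interval 0.94 to 1.1), nor Chrnb2 from Chrna4 (1.01, 0.950 to 1.08), nor Chrm2 from Chrna5 (1.0, 0.82 to 1.2). Intervals of the other neighbouring ratios did not hold 1. They take the error of a gene's mean as 0.5 times that of its fold change and treat genes as independent, and they cover no error in length.

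Annotated length limits this order. The GENCODE model of Chrm4 is 1440 bases long and holds no untranslated base, whereas the principal transcript of Chrm1 holds 4888 untranslated bases, so the level of Chrm4 per kilobase is overstated if reads of its untranslated regions were counted. With the longest transcript in place of all exons, Chrm1 came at 615, Chrna7 moved to 123, and Chrna5 at 23.1 passed Chrm2 at 19.3. Chrm4 stayed at 605 because its exons and its longest transcript are the same 1440 bases. The similar levels of Chrna4 and Chrnb2 also moved apart, to 166 and 200 mean normalised counts per kilobase. Within the tested muscarinic genes, Chrm4 and Chrm1 made up 42.9% and 42.2% of the summed level per kilobase of exon, Chrm3 13.6% and Chrm2 1.29%.

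**Figure D3:**
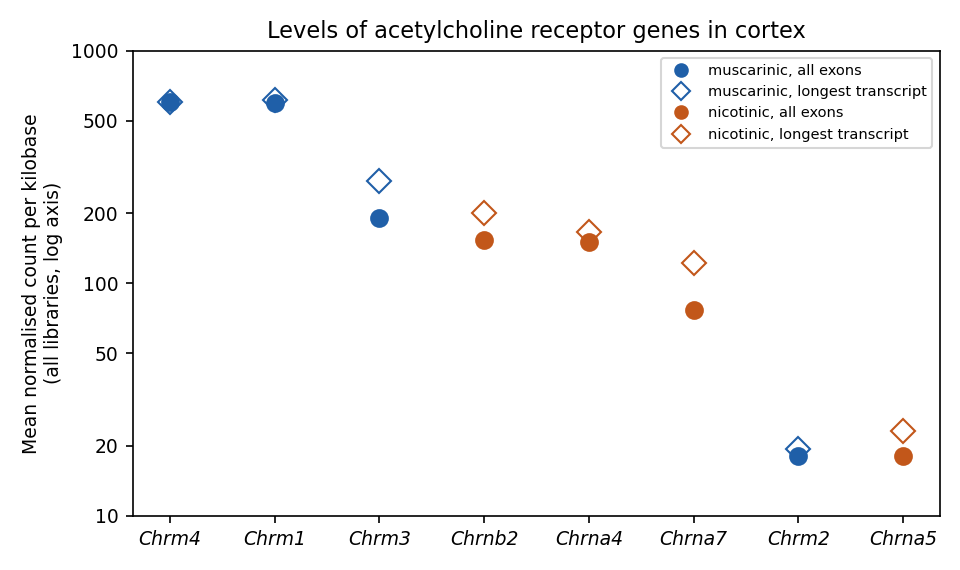
Mean normalised count per kilobase over all KI and WT libraries, on a log axis, for the 8 receptor genes, with length taken as all annotated exons (filled) or the longest transcript (open). Chrm1 lies near 600 by either length, and Chrm2 and Chrna5 near 20. Chrm4 also lies near 600, but its exons and its longest transcript have the same length, so its symbols coincide by construction.

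In the RefSeq annotation of GRCm38, the receptor genes are protein-coding and lie on 7 chromosomes. Chrm1 (gene 12669) is on chromosome 19 from 8664005 to 8683606, Chrm2 (243764) on chromosome 6 from 36387991 to 36528638 and Chrm3 (12671) on chromosome 13 from 9875486 to 10361062. Chromosome 2 holds Chrm4 (12672) from 91922189 to 91929835 and Chrna4 (11438) from 181022311 to 181043579. Chrna7 (11441) is on chromosome 7 from 63098692 to 63212526, Chrnb2 (11444) on chromosome 3 from 89753448 to 89764632, and Chrna5 (110835) on chromosome 9 from 54980827 to 55011420. The end of Chrna5 overlaps the end of Chrna3 on the opposite strand. Chrnb2 shares 1365 bases, 16.3% of its GENCODE exons, with the RNA editing gene Adar on the opposite strand. In RefSeq, Adar ends close to the lowest coordinate of Chrnb2, which is the 3′ end of Chrnb2. The size of this overlap therefore depends on the annotation. Adar had a value of 0.036 on the log2 scale (SE 0.051) by the authors' deposited table. Chrm4 touches Mdk, which stood at 0.030 (0.12) there. Neither the annotation used in counting nor any use of strand is stated, and reads of such overlaps cannot be told apart.

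Other genes of acetylcholine signalling were read from lists by role, and none of their members passed an adjusted p of 0.05 in either direction. Of 11 further nicotinic subunits, 2 were tested. Chrnb1, known from muscle, stood at -0.18 (SE 0.26) and Chrnb3, known from the habenula and midbrain, at 0.10 (0.23), on the log2 scale of the authors' deposited table. Their counts were low, at means of 41.9 and 47.3.

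The list for acetylcholine supply and breakdown had a median log2 fold change of -0.039 over 10 tested of 11, with 4 positive and 6 negative. It holds Cpt1a, whose product does not itself make, carry or break down acetylcholine, and the positive value of Cpt1a enters these figures. Chat, the synthetic enzyme, stood at -0.25 (SE 0.19), Prima1, which anchors acetylcholinesterase to membranes, at -0.26 (0.16) and Slc10a4, a vesicular protein of cholinergic neurons, at -0.25 (0.23) in the authors' deposited table. Cpt1a, a mitochondrial carnitine acyltransferase, had the smallest p of the list and stood at 0.12 (0.066, unadjusted p = 0.0731). Ache itself, the degrading enzyme, was far more abundant than Chat per kilobase (282 against 23.6 mean normalised counts) and stood at -0.047 (0.072). Slc18a3, the vesicular transporter, lies inside the Chat locus and stood at 0.090 (0.23), with a mean normalised count of 59.6. Of 9 markers of basal forebrain cholinergic neurons, 6 were tested in the authors' deposited table, 4 of them negative, with mean normalised counts from 59.6 to 178. Zic4 (-0.70, SE 0.26) and Isl1 (-0.50, SE 0.26) had an unadjusted Wald p under 0.05, as 3.22% of all genes did. Neither was called, with an adjusted p of 0.9999 for each. Chat, Slc18a3 and Slc5a7, the choline transporter, belong to both lists, and Slc5a7 stood at 0.060 (SE 0.18) in the authors' deposited table.

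Chaperones and Ly6 modulators of nicotinic receptors had a median of -0.026 over 16 tested of 17, with 7 positive and 9 negative. Lynx1, a brake on nicotinic currents, had the second highest mean normalised count of them, at 8705, and a log2 fold change of -0.046 (SE 0.032) in the authors' deposited table. Lypd6 stood at 0.13 (0.078), Ly6g6e at -0.48 (0.26) with a mean normalised count of only 42.4, and Hspa5, the endoplasmic reticulum chaperone, at -0.20 (0.16). None of these 4, the smallest p-values of the list, was under 0.05 unadjusted.

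Downstream of the muscarinic receptors, the Gq branch (among them G proteins, phospholipase C and protein kinase C) had 13 of 15 genes positive, with a median log2 fold change of 0.046 beside 0.0025 over all genes, of which 51.6% were positive. In the authors' deposited table Itpr1, the calcium release channel, stood at 0.13 (SE 0.066, unadjusted p = 0.0530), Plcb1 at 0.086 (0.046, p = 0.0632) and Plcb4, the phospholipase C isoform of thalamic relay neurons, at -0.078 (0.061). None of the 15 had an unadjusted p under 0.05. The Gi/o branch had 14 of 18 genes positive and a median of 0.017. Its genes with the smallest p in the authors' deposited table were Rgs8, a G protein regulator, at -0.097 (0.049, unadjusted p = 0.0470, adjusted p = 0.9999), the adenylyl cyclases Adcy9 at 0.13 (0.068) and Adcy1 at 0.13 (0.070), and Rgs7 at 0.061 (0.043). Receptor kinases and arrestins had a median of 0.016 over 8 genes, 4 of them positive. Among the 4 with the smallest p, all positive, Grk5 stood furthest from 0 at 0.11 (0.091). Csnk1a1 followed at 0.054 (0.053), Arrb1 at 0.044 (0.043) and Csnk2a1 at 0.033 (0.045). The negative values included Arrb2 at -0.047 (0.076).

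**Figure D4:**
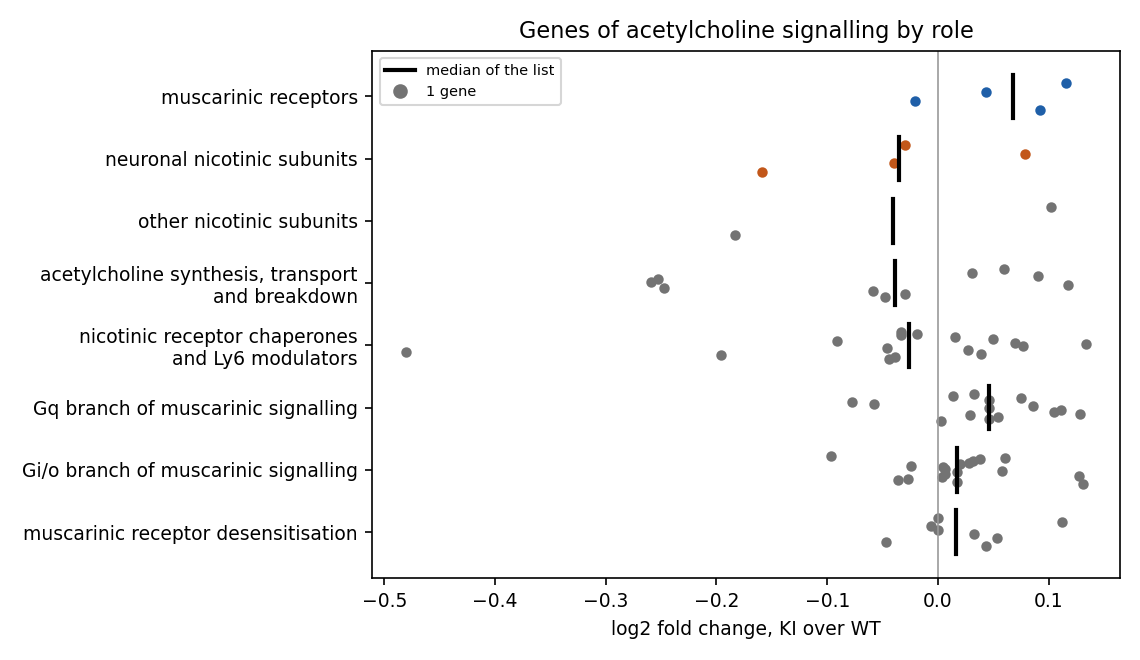
Log2 fold change of KI over WT for each tested gene of the acetylcholine signalling lists (points), grouped by list, with the median of each list as a black line. Medians lie between -0.041 and 0.068, and none of the genes was called.

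Wider receptor groups give the scale of these values. The 31 tested G protein coupled receptors for other transmitters had a median log2 fold change of -0.022 and the 31 other ligand-gated channel subunits one of 0.023, against 0.068 for the 4 muscarinic genes and -0.035 for the 4 nicotinic genes. No gene of either wider group was called. Grm3, a metabotropic glutamate receptor, had the smallest p among these coupled receptors at 0.18 (SE 0.054, adjusted p = 0.447), followed by the adrenergic receptor Adra2c at -0.21 (0.091), and Grik5, a kainate receptor subunit, had the smallest p among the channels at 0.080 (0.041), all in the authors' deposited table.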

How the data were processed

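Per the submitters' processing notes, the tools were Trimmomatic 0.39, HISAT2 2.1.0, featureCounts 2.0.0 and DESeq2 1.26.0 and the build was mm10. For settings, annotation, strand and model, the text consulted here gives nothing. Per the file headers, the authors deposited for each of 13661 genes the mean normalised count, a signal they had scaled, with the log2 fold change, its SE, the Wald score and the p-value and adjusted p-value. In the deposited columns, the score equalled the fold change over its error and the adjusted p a Benjamini-Hochberg adjustment for 13660 of 13660 genes (tolerance 1e-06). Without per-library counts the planned count test gave way to the authors' deposited test, and depth per library is unknown. The mean normalised count of a gene was 549 at the median, 24.4 at the lowest and 325080 at the highest. The labels describe each library as from a mouse.

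Symbols and coordinates came from RefSeq GRCm38 (13497 gene numbers matched), lengths and sequences from GENCODE M21 (13440 genes with a length), whose assembly is that of mm10. Intervals, levels and trends were computed with Python 3.11.15 and SciPy 1.17.1, and trend removal and adjustment were tested on simulated data. The members and lists were chosen with earlier results of these data known. Thalamic markers such as Tnnt1 and Ramp3 were listed after they had been seen to be lower, and their direction is not independent evidence. Named genes are all members, neighbours and overlapping genes, and in each list those with the smallest p (4 in pathway lists, 2 in others) or, outside pathway lists, the 2 highest mean counts. One gene that this rule names is not reported here. Ache and Slc18a3 were added after their values were seen. Alternatives were thresholds of 0.1 and 0.01, a log2 minimum of 0.2, count minimums of 50 and 200, centring, removal of trends with length or count, and other lengths.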

Additional observations from a re-analysis of the deposited data

How the results depend on the processing

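None of the 8 receptor genes passed under any alternative run: thresholds of 0.1 and 0.01, a log2 minimum of 0.2, mean count minimums of 50 and 200, centring on the median of all genes, and removal of the trend with exon length or with mean count. At a threshold of 0.01 the count over all genes was 6 in place of 10, by the construction of the stricter threshold. It stayed between 7 and 10 under the others. All 24 recomputed receptor fold changes kept their direction, with adjusted p-values of 1. Each shift removed was smaller in size than the gene's own fold change, the largest being -0.034 for Chrm4 with length. No direction could therefore have changed. Chrm4 moved from 0.12 to 0.15 with the length trend removed, a value that rests on its model without untranslated bases. The median over the members was -0.035 for the nicotinic genes alone and 0.068 for the muscarinic genes alone, so its sign depends on which are taken. Levels per kilobase moved beyond their error for 7 of 8 genes with the longest transcript. The other gene, Chrm4, has the same length either way, so its level could not move. No paired analysis was possible because only the deposited comparison, without per-library values, was analysed; leaving out libraries was not run for the same reason.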

Other observations

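Genes beside the receptor genes were read from the authors' deposited table as values. Col20a1, next to Chrna4, had a log2 value of -0.021 for KI over WT (SE 0.23). Otud7a, next to Chrna7, stood at 0.0064 (0.060), and Psma4, next to Chrna5, at -0.042 (0.058). Aven, which overlaps the untested Chrm5 in RefSeq, stood at 0.24 (0.12, unadjusted p = 0.0560) with a mean normalised count of 154 in the authors' deposited table. None of the tested genes that adjoin or overlap a receptor gene was called.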
